A study of Caenorhabditis elegans with 2 samples.

Results

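Genes for translation factors were examined for peaks of the T-box factor TBX-37 in early embryos of the nematode Caenorhabditis elegans. The set comprised every protein-coding gene of the WBcel235 annotation whose symbol starts with eif-, iff-, ife- or eef-, which gave 38 of 19973 protein-coding genes, 32 of them for initiation and associated factors or eIF5A and 6 for elongation factors. The data were peak lists from chromatin immunoprecipitation and sequencing of 2 biological replicates, which form the single group of the study. Both replicates came from strain RW12282, in which CRISPR inserted the tag of allele st12282[tbx-37::TY1::EGFP::3xFLAG] at the tbx-37 locus on chromosome III, and the precipitation used an antibody against green fluorescent protein. Embryos were released by bleaching and taken at 0 hours. Whole embryos were used, so cells with and without TBX-37 were mixed, and no untagged strain was analysed here. The deposited labels name TBX-37 as the antibody target in one field and the tag in another. Read counts are not in the lists, and sequencing depth is unknown.

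Translation starts when eIF2 delivers the initiator tRNA to the small ribosomal subunit, on which eIF1, eIF1A and the many-subunit complex eIF3 are assembled, and eIF4E brings the messenger RNA by its cap. eIF2B recharges eIF2 with GTP. In elongation, eEF1A carries each aminoacyl-tRNA to the ribosome, eEF1B recharges eEF1A, eEF2 moves the ribosome along, and eIF5A helps at difficult peptide bonds. Protein synthesis is needed in every growing cell, whereas TBX-37 acts in descendants of the ABa blastomere.

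A TBX-37 summit in the promoter window was found at 9 of the 38 genes: eif-1.A, eif-2Bgamma, eif-3.B, eif-3.C, eif-3.D, eif-4A3, iff-2, eef-1A.1 and eef-2. The window ran from 1000 bp upstream to 200 bp downstream of the gene start, and the summits were those of the conservative list, which the authors made from both replicates and which holds candidates with an irreproducible discovery rate (IDR) of 0.01 or less. The IDR estimates the share of irreproducible candidates among those with an IDR as low or lower. The count is 23.7% of the genes (exact 95% binomial interval 11.4 to 40.2, counting error over genes only), and 4.11% of all protein-coding genes had such a summit. In the other series-wide list the count was also 9 of 38, beside 3.91% of all genes, with eif-3.E in place of eif-2Bgamma. Each replicate's own list held 6 of the 38 (15.8%, interval 6.02 to 31.3), where the background was 1.94% for replicate 1 and 3.05% for replicate 2. All 4 lists held 5 genes, eif-3.B, eif-3.C, eif-3.D, iff-2 and eef-1A.1. Replicate 1 added eif-4A3 and replicate 2 added eif-3.E. The lists of both replicates were made against the same control file, so they are not fully independent, and no test between conditions is possible with 1 group.

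**Figure D1:**
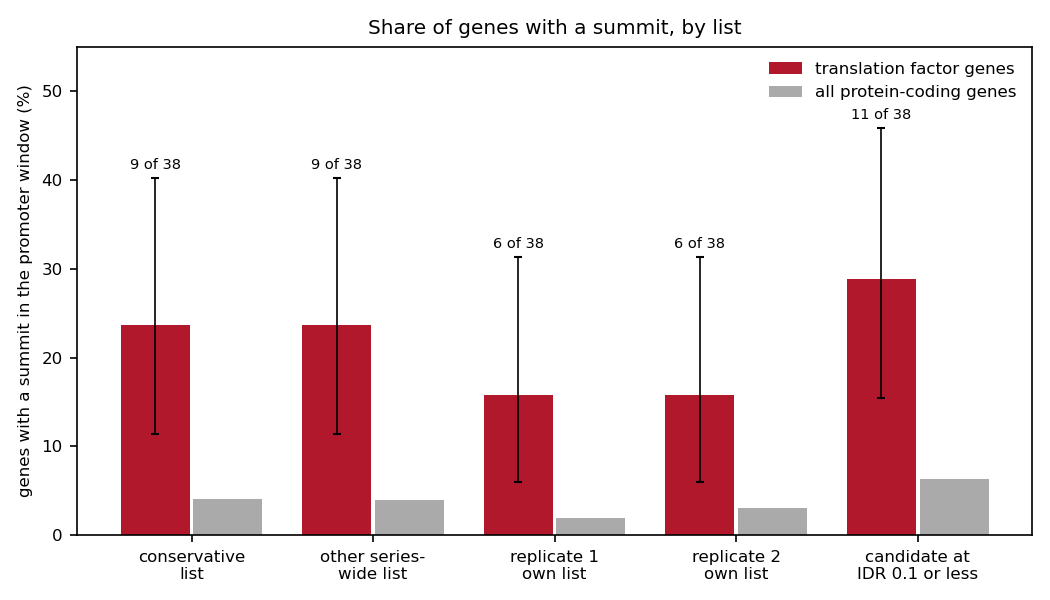
Bars give the share of genes (%) with a summit in the promoter window, for the 38 translation factor genes (red, with exact 95% binomial intervals as error bars) and for all 19973 protein-coding genes (grey), in each list and for candidates at an IDR of 0.1 or less. The red bars run from 15.8% to 28.9% and the grey bars from 1.94% to 6.26%.

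Sequence around 5 of the 9 summits, all between annotated genes, is shown, each on the strand of its gene and read from the WBcel235 genome, to let the binding regions be compared. Up to 75 bp each side of the summit are given, without annotated exons. The stretches are chrII:14795079-14795229 (plus strand) for eif-3.B, chrIII:8971751-8971891 (minus) for eif-3.D, chrIV:4810470-4810620 (plus) for eif-1.A, chrII:8561368-8561512 (minus) for iff-2 and chrIII:6972086-6972200 (minus) for eef-1A.1. Capitals mark 3 words looked for on either strand. These are the GA repeat GAGAGA (in eef-1A.1), the GC-rich word GGGCGG (in eif-1.A, where it reads as its reverse complement) and the short word GCGC (in eif-3.B, eif-3.D and eif-1.A), and iff-2 holds none of them in the stretch printed.
eif-3.B: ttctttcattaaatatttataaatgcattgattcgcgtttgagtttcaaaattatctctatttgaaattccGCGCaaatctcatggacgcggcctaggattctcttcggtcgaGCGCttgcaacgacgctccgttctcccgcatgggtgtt
eif-3.D: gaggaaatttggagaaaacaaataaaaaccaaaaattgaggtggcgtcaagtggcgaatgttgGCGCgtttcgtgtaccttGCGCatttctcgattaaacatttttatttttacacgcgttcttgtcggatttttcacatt
eif-1.A: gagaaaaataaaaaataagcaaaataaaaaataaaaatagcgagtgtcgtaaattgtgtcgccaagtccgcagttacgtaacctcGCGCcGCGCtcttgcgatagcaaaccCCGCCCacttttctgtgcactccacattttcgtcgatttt
iff-2: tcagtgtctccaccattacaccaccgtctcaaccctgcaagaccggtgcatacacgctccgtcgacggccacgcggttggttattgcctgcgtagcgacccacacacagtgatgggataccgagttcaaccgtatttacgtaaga
eef-1A.1: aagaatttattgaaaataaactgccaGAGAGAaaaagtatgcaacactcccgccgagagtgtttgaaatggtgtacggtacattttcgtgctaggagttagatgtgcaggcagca

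Words linked to T-box factors and words frequent in promoters were counted around the summits. Within 100 bp of the summit, none of the 9 regions held AGGTGTGA or its shorter core GGTGTG on either strand. Among all 587 conservative promoter summits these words were in 0.17% and 6.47%. Upstream windows of the same length, 201 bp, taken from 300 to 100 bp upstream of all gene starts, held them in 0.516% and 5.39%. The 9 regions are too few to differ from such shares. GAGAGA was in 2 of the 9, at eif-1.A and eef-1A.1, against 24.2% of all conservative promoter summits and 14.2% of these upstream windows. In eif-1.A it lies outside the stretch printed. GGGCGG was in 2, at eif-1.A and eif-2Bgamma, against 12.9% of promoter summits and 4.67% of upstream windows. GCGC, a word picked after the sequences had been read, was in 7 of the 9 (77.8%), in 64.2% of all conservative promoter summits and in 22% of all upstream windows, and in 12 of the 29 upstream windows of members without a conservative summit (41.4%). The GC content of the 9 regions ran from 35.8% to 50.2% with a median of 41.8%, and the median was 42.3% over all conservative promoter summits and 33.8% over all upstream windows. These matches describe letters and are not binding sites.

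The strongest peaks among translation factor genes were at the eIF3 genes eif-3.B and eif-3.C. The signal value that the authors gave a peak is higher for stronger peaks, and its scale differs between lists, so ranks within a list are given too. At eif-3.B, the scaffold subunit that holds eif-3.G and eif-3.I in the complex, the signal value was 279.6 in the conservative list (rank 74 of 1107, II:14795105-14795239, 250 bp upstream of the start), 105 in replicate 1 (rank 80 of 538) and 169.8 in replicate 2 (rank 81 of 817). It was the strongest member in every list.

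At eif-3.C, a subunit of the PCI-domain core, the signal value was 189.8 in the conservative list (rank 195, I:9979782-9980037), 70.7 in replicate 1 (rank 203) and 117 in replicate 2 (rank 196). At eif-3.D, which can bind the messenger RNA cap in human cells, it was 124 in the conservative list (rank 412, III:8971698-8971953), 45.2 in replicate 1 (rank 434) and 77.9 in replicate 2 (rank 409). Among members, eif-4A3 (46.4) was higher than eif-3.D in replicate 1, and eef-1A.1 (82.8) was higher than eif-3.D in replicate 2. The conservative summits of eif-3.C and eif-3.D were both 248 bp upstream of the start, close to the 250 bp of eif-3.B. The distances at eif-3.B, eif-3.C and eif-3.D were less alike in the replicates' own lists, at 235, 234 and 216 bp in replicate 1 and 239, 248 and 255 bp in replicate 2. A position from 200 to 300 bp upstream, a range chosen after these distances were seen and centred on them, was held by 3 of the 9 members with a summit (33.3%) and by 15.2% of the 820 genes with one.

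eif-3.E, another core subunit, differed between the replicates. Its strongest candidate had a signal value of 74.1 in replicate 2 (rank 602 of 44219 candidates, IDR 0.000363, 211 bp upstream) and of 18.0 in replicate 1 (rank 11846 of 39578, IDR 0.892, also 211 bp upstream). In the candidates behind the conservative list its signal value was 96.2, rank 796 of 66355, with an IDR of 0.526, and the peak was left out, although its signal value was higher than those of iff-2, eif-2Bgamma, eif-1.A and eef-2 in that list. In the other series-wide list the same region, I:10642352-10642607, passed with an IDR of 0.000788.

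The remaining 7 eIF3 genes had no summit in the promoter window in any thresholded list. In the conservative list 3 of the 11 eIF3 genes had one, beside 4.11% of all genes. Outside the window, a conservative peak of 131.2 (I:2487770-2488025) lay 2037 bp past the gene start of eif-3.I. It counted for eif-3.I when windows at any transcript start were used. Candidates behind the conservative list were found at eif-3.J (signal value 56.3, IDR 0.810), a loosely attached subunit, at eif-3.G (48.2, IDR 0.747), eif-3.I (34.2, IDR 0.505) and eif-3.H (25.7, IDR 0.8999). In the other series-wide ranked list the IDRs were 0.1128 at eif-3.G, 0.2635 at eif-3.J and 0.7821 at eif-3.I, and eif-3.H had no candidate there. eif-3.G ranked higher in replicate 2 (39.0, rank 2220, 349 bp upstream) than in replicate 1 (14.8, rank 20883, 398 bp upstream). At eif-3.J the strongest candidates lay at different places, 949 bp upstream in replicate 2 (41.8, rank 1726) and 15 bp past the start in replicate 1 (11.98, rank 30653). eif-3.F and eif-3.K had candidates in other ranked lists alone, and eif-3.L had none in any. Those of eif-3.F had 49.2 in the other series-wide ranked list (rank 4594, IDR 0.617) and 31.9 in replicate 2 (rank 5027, IDR 0.675). That of eif-3.K had 13.1 in replicate 2 (rank 37381, IDR 0.928). The eIF3 genes with other names, egl-45 (subunit a) and cif-1 (subunit m), do not follow the naming rule and were looked up after the data had been seen. They had candidates with signal values of 37.6 and 32.2, IDRs of 0.423 and 0.658, and no peak in any list.

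**Figure D2:**
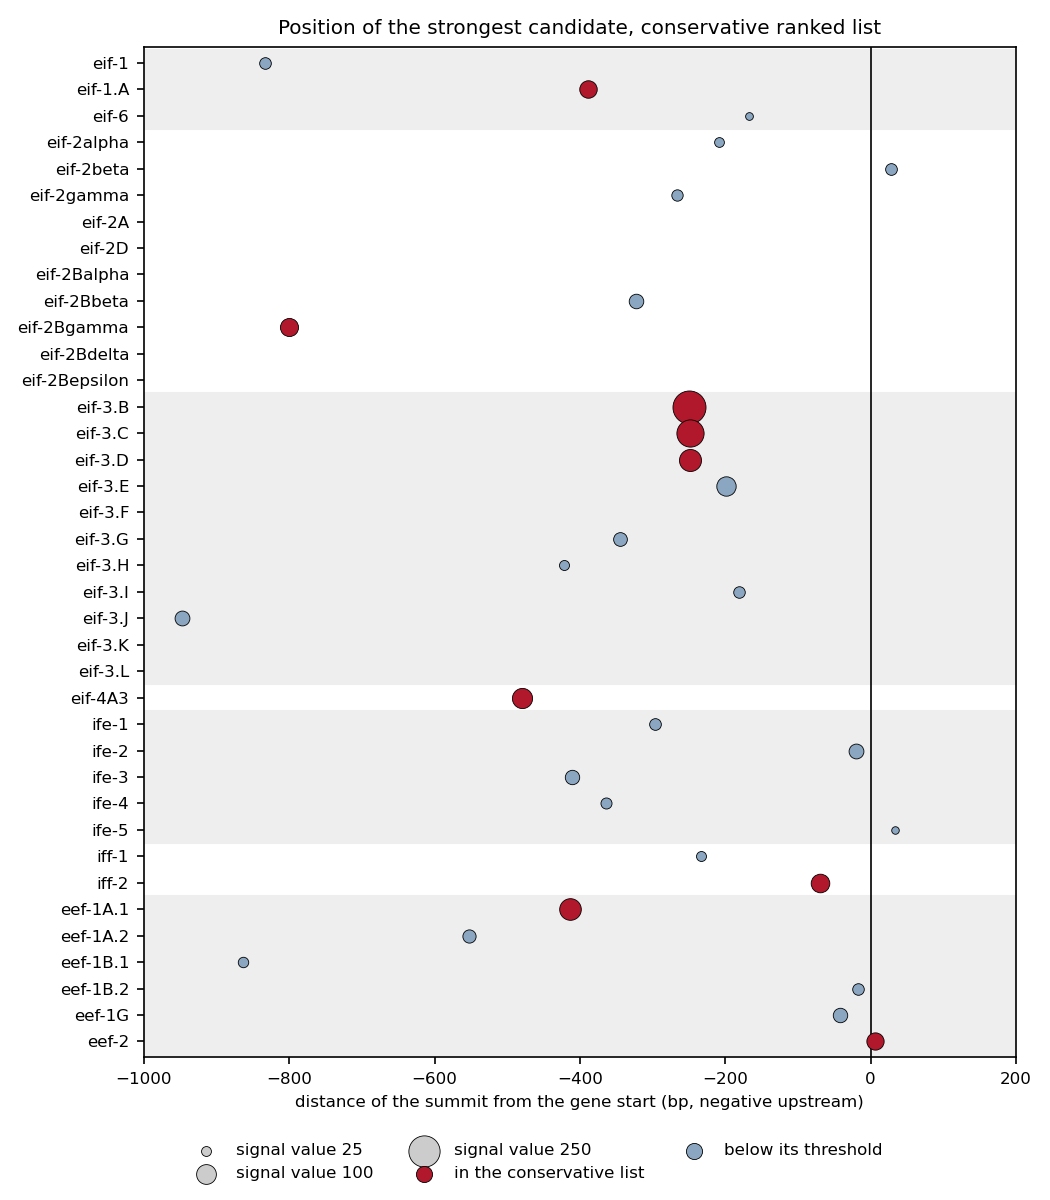
Each point is the strongest candidate of a translation factor gene in the ranked list behind the conservative list, placed by the distance of its summit from the gene start (bp, negative upstream), with an area that grows with the signal value. Genes are ordered by role in alternating bands, red points are in the conservative list, blue points are below its threshold, and rows without a point had no candidate. The summits of eif-3.B, eif-3.C and eif-3.D lie 248 to 250 bp upstream in this list.

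Factors for delivery of the initiator tRNA were taken as the eIF2 and eIF2B subunit genes with eif-2A and eif-2D. Among these, 1 of 10 had a conservative summit, beside 4.11% of all genes. That summit, 800 bp upstream of eif-2Bgamma (II:6968320-6968575), a subunit of the exchange factor, lay inside the snRNA gene sup-39, within an intron of the neighbour C15F1.5. Its signal value was 83.9 in the conservative list (rank 771), and its strongest candidates below the threshold had 36.0 in replicate 1 (rank 921 of the candidates, IDR 0.0188) and 47.1 in replicate 2 (rank 1280, IDR 0.308). The eIF2 subunits themselves had no peak in any list. Their candidates behind the conservative list had 24.5 at eif-2alpha, 35.3 at eif-2beta and 33.1 at eif-2gamma, each at an IDR above 0.7. eif-2Bbeta reached 54.3 with an IDR of 0.181. eif-2Balpha, eif-2Bdelta and eif-2D, an alternative factor for tRNA delivery, had no candidate in any of the 4 ranked lists, and eif-2A and eif-2Bepsilon had candidates in 2 of them, none behind the conservative list.

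Of the factors that govern start selection and subunit joining, eif-1.A had a peak and eif-1 and eif-6 had none. The eif-1.A peak (IV:4810417-4810672, 389 bp upstream) had a signal value of 78.3, rank 844 and an IDR of 0.00531, the highest IDR of the 9 members. Neither replicate's own list held it, where its candidates had 26.7 (rank 2285, IDR 0.353) in replicate 1 and 52.6 (rank 1025, IDR 0.246) in replicate 2. eif-1, whose product guards the choice of start codon, had a candidate with 34.8, and eif-6, whose product keeps the ribosomal subunits apart, one with 15.4, at IDRs of 0.784 and 0.8999.

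At eif-4A3, which encodes the helicase of the exon junction complex rather than a general initiation factor, the signal value was 104 in the conservative list (rank 548, I:636697-636952), 46.4 in the own list of replicate 1 (rank 411) and 53.5 for the candidate in replicate 2 (rank 987 of the candidates, IDR 0.0115). The last IDR lay just above the threshold of 0.01. The summit was 480 bp upstream of eif-4A3 but 21 bp past the start of vps-20, a gene for membrane sorting on the other strand, and lay in an exon of vps-20.

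None of the 5 eIF4E genes had a peak in any list, where 4.11% of all genes had one in the conservative list. Behind the conservative list 56.7% of all genes had a candidate, as did all 5 eIF4E genes. The strongest was at ife-2, 20 bp upstream of the start, with 56.4 and an IDR of 0.0214, the lowest IDR among members outside the list. In the own candidates of the replicates ife-2 had 24.8 (rank 3181, 54 bp upstream) and 36.2 (rank 2924, 42 bp past the start), and in the other ranked lists its strongest candidate had IDRs from 0.789 to 0.862. ife-3 had 53.1 (IDR 0.472), ife-1 35.1 (0.565), ife-4 31.3 (0.538) and ife-5 14.7 (0.8999). The weakest candidate of all members behind the conservative list was that of ife-5. The pair of eIF5A genes stood apart from each other. iff-2, the somatic form, had a peak 70 bp upstream of its start (II:8561309-8561564) with 88.8 in the conservative list, 37.7 in replicate 1 and 57.7 in replicate 2, and iff-1, the germline form, had a candidate with 25.5 (IDR 0.8999) and none in either replicate.

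Elongation factors had peaks in the conservative list at 2 of 6 genes, beside 4.11% of all genes. At eef-1A.1, whose promoter drives many broadly expressed transgenes under its older name eft-3, the signal value was 119.8 in the conservative list (rank 434, III:6971997-6972252), 41.9 in replicate 1 (rank 482) and 82.8 in replicate 2 (rank 372). The other eEF1A gene, eef-1A.2, had a candidate with 44.8 in the conservative comparison (IDR 0.337), 17.2 in replicate 1 (rank 13743 of the candidates) and 27.5 in replicate 2 (rank 9365). At eef-2 the peak (I:9163409-9163664) had 76.5, rank 873 and an IDR of 0.00526, with its summit in the first exon, 6 bp past the start, and the replicates had candidates with 32.2 (IDR 0.0554) and 38.7 (IDR 0.115). The exchange factor subunits had no peak, with 53.6 at eef-1G (IDR 0.0768, but 0.755 in the other series-wide ranked list, 0.712 in replicate 1 and 0.864 in replicate 2), 34.4 at eef-1B.2 (IDR 0.484) and 28.0 at eef-1B.1 (IDR 0.583). At the threshold, the members just inside were eif-1.A and eef-2, and those just outside were ife-2 and eef-1G, so 11 of 38 (28.9%) had a candidate at an IDR of 0.1 or less, beside 6.26% of all genes.

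**Figure D3:**
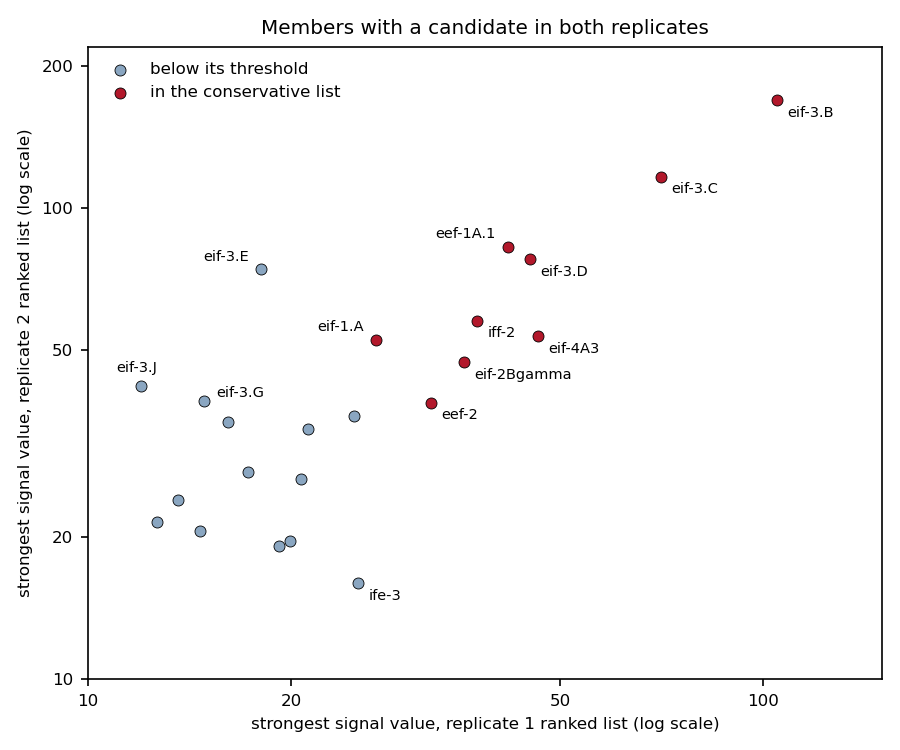
Points show the 23 translation factor genes with a candidate in both replicates, by the signal value of the strongest candidate in the ranked list of replicate 1 (horizontal, log scale) and of replicate 2 (vertical, log scale). The 9 genes of the conservative list (red) lie at 26.7 or above in replicate 1 and 38.7 or above in replicate 2, and eif-3.E (blue) lies at 18.0 and 74.1.

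Candidates of any strength were also frequent at these genes. Behind the conservative list 30 of 38 had one (78.9%, interval 62.7 to 90.4), beside 56.7% of all protein-coding genes, and 34 of 38 (89.5%) had one in any of the 4 ranked lists, beside 70.8% of all genes. Ranked by the strongest candidate among all genes, with genes lacking one at 0, the median percentile of the 38 was 76.6 behind the conservative list, 78.7 in replicate 1 and 81.2 in replicate 2. Over all genes the median was 50 behind the conservative list and 0 in each replicate, where 43.3% and 44.3% of genes had a candidate. The top 10% of genes held 15 of the 38 behind the conservative list, 11 in replicate 1 and 16 in replicate 2. By role, the median percentile behind the conservative list was 89.9 for eIF3 and for elongation factors, 76.8 for eIF4E and 76.4 for start selection. It was 29.3 for initiator tRNA delivery, the eIF2 and eIF2B subunits with eif-2A and eif-2D. Of these, 5 of 10 had no candidate, so 29.3 lies midway between 0 and the 58.6 of eif-2alpha. The order of these roles differed between lists. In the other series-wide ranked list the medians were eIF3 90.3, elongation 89.8, eIF4E 76.8, initiator tRNA delivery 67.1 and start selection 59.2. In replicate 1 they were start selection 88.8, elongation 88.1, eIF4E 77.1, eIF3 73.0 and initiator tRNA delivery 33.0. There 5 of the 10 delivery genes had a candidate, the lowest of them at 66.0. In replicate 2 the medians were eIF3 94.1, elongation 88.3, eIF4E 71.0, initiator tRNA delivery 66.7 and start selection 61.0. The 23 genes with candidates in both replicates had them a median of 41 bp apart, and 15 within 100 bp. Candidates in both replicates and their distances were not counted over all genes, so these values have no background. For the 9 genes of the conservative list the median was 18 bp, with 8 within 100 bp and iff-2 at 103 bp. That list keeps peaks reproducible between the replicates, so close summits at these 9 genes follow in part from that choice.

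**Figure D4:**
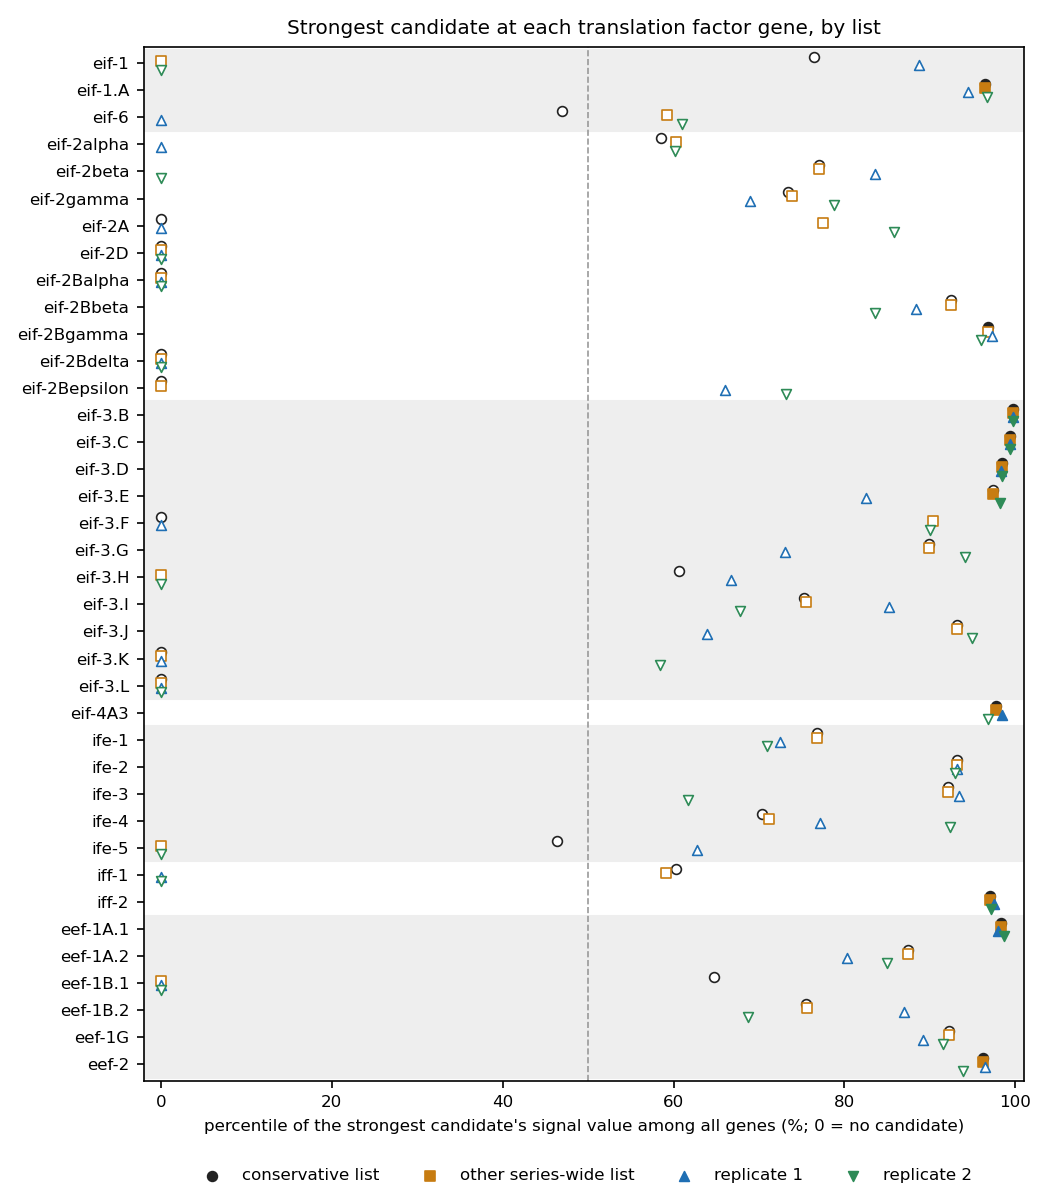
Each marker gives the percentile (%) of the strongest candidate's signal value among all protein-coding genes, for each of 38 translation factor genes in each of 4 ranked lists, with genes lacking a candidate at 0. Filled markers have a summit in the thresholded list of that name, open markers do not, and the dashed line is at 50. The markers of eif-3.B, eif-3.C, eif-3.D and eef-1A.1 lie above 98 in every list, and those of eif-2D, eif-2Balpha, eif-2Bdelta and eif-3.L are all at 0.

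Many of these summits could not be given to one gene. Of the 9 conservative summits, 6 also lay in the promoter window of another protein-coding gene (66.7%), as did those of 59.1% of all 820 genes with a summit. The eef-1A.1 summit was 413 bp upstream of eef-1A.1 and 128 bp upstream of rfc-4, a replication factor gene read in the other direction. The eif-3.D summit was 66 bp upstream of R08D7.4, and the eef-2 summit 271 bp upstream of clsp-1, the claspin gene. The eif-1.A summit was 571 bp upstream of H06H21.37 and the iff-2 summit 865 bp upstream of F54C9.14. The member was the nearest protein-coding start in 6 of the 9 cases (66.7%, against 68.0% of all genes with a summit), the exceptions being eef-1A.1, eif-3.D and eif-4A3. The median distance was 250 bp upstream for the 9 genes and 245.5 bp for all 820. Small RNA genes lay within 100 bp of 2 of the 9 summits, sup-39 at eif-2Bgamma and the microRNA gene cel-mir-5549 at eef-1A.1, and within 100 bp of 11.6% of all conservative promoter summits. The part of these neighbours in the signal was not tested.

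Members that may lie inside an operon were counted apart. In C. elegans a downstream gene of an operon is transcribed from the promoter of the first gene, and a protein-coding gene ending within 500 bp upstream on the same strand was taken as a sign of such a place. Of 8 members with such a neighbour, 2 had a conservative summit, eif-2Bgamma and eif-3.C, beside 3.1% of all genes of that kind. The others were eif-2alpha, eif-2gamma, eif-3.F, ife-1, ife-5 and eef-1B.2. None of the 8 neighbours had a conservative summit in its own window, beside 4.11% of all genes, and 8 genes are too few to differ from that share. Of the 30 members without a close neighbour, 7 had a summit (23.3%), beside 4.37% of all such genes.

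Other genes of translation outside the naming rule also carried summits. Of 36 listed symbols 30 matched the annotation, and 7 of the 30 had a conservative summit (23.3%, interval 9.93 to 42.3), beside the 4.11% of all genes. They were the release factor genes erfa-1 (signal value 152) and erfa-3 (124), the mitochondrial elongation factor genes tufm-2 (222) and gfm-1 (144), the ABC-F ATPase gene abcf-2 (119), the eIF4H gene drr-2 (76.9) and the poly(A)-binding protein gene pab-1 (74.96). A further gene, dph-2, which acts in the diphthamide modification of eEF2, had a summit in the other series-wide list and in the own list of replicate 1 but not in the conservative list, where its candidate had 81.3 and an IDR of 0.0115. All 7 conservative summits also lay in the promoter window of another protein-coding gene, beside 59.1% for all 820 genes with a summit. For pab-1 that other gene was the ribosomal protein gene rpl-30. The partners of eIF4E in the cap complex, the eIF4A gene inf-1 and the eIF4G gene ifg-1, had no summit, with a candidate of 31.2 (IDR 0.704) at inf-1 and none behind the conservative list at ifg-1. Neither did the eIF5B gene iffb-1 (20.2, IDR 0.8999) or efk-1, which encodes the kinase of eEF2 (20.7, IDR 0.522).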

How the data were processed

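Peak lists of 2 biological replicates were used as deposited by the authors, with ce11 as the build per the labels. Per the text files deposited with the samples, lists were made from aligned reads of each precipitation and 1 control file. Neither the aligner nor the peak caller is given in the sources used here. In the deposited files the authors' signal value ranks peaks within a list, their summit offset gives the position, the score (maximum 1000) is the scaled IDR, and the −log10 of the IDR is in the ranked lists. Of 1311 candidates at an IDR of 0.01 or less, the conservative list holds 1107, and none of the other 204 lay in a member's window. In the ranked list of both replicates, 8 per-sample columns whose names match no sample were not used.

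Genes came from Ensembl release 115 and sequence from RefSeq's WBcel235 genome, whose chromosome lengths hold every peak. Summits were counted in windows 1000 bp upstream to 200 bp downstream of gene starts with Python 3.11.15 and SciPy 1.17.1. A summit in several windows counts for each gene. No tests were made: counts stand beside the share of all protein-coding genes. Small RNA genes are tRNA, snoRNA, snRNA, miRNA and rRNA genes. Window counting was checked on planted summits. The members, lists and words were chosen with earlier results of these data known, and GCGC, egl-45, cif-1 and the range from 200 to 300 bp upstream were added later. Of the other translation genes, etf-1, selb-1, mtif-2, mtif-3, denr-1 and mcts-1 matched no symbol. Named members were those with a summit in any list, the members with the strongest and weakest candidate of each role behind the conservative list, those without candidates and those nearest the threshold, and further members named for their role were chosen after their values were seen. Alternatives were other lists, thresholds, window widths, peak midpoints, overlaps and starts. Some sequences are not shown here.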

Additional observations from a re-analysis of the deposited data

How the results depend on the processing

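The count of 9 genes with a conservative summit lay between 6 and 10 under every alternative run. Leaving out a replicate, that is using the own list of the other, gave 6 of 38 in each case, beside 3.05% of all genes without replicate 1 and 1.94% without replicate 2. Beside 4.11% of all genes in the main setting, a window of 500 bp upstream gave 8 (without eif-2Bgamma; 3.24% of all genes), 2000 bp gave 10 (5.29%; with eif-6, by a summit 1999 bp upstream whose nearest start is tba-2), and any transcript start gave 10 (4.44%; with eif-3.I, by a summit 2037 bp past its gene start). Peaks with the highest score alone gave 7, without eif-1.A and eef-2, beside 3.44% of all genes. Chosen after seeing the data, leaving out summits beside small RNA genes gave 7 and requiring the nearest start gave 6, beside 3.73% and 2.82% of all genes. The median percentile of 76.6 moved to between 78.7 and 81.2 without one replicate (SD between replicates 1.74), to 80.6 with 500 bp, 84.1 with 2000 bp, 82.6 by IDR and 84.1 among genes with a candidate alone. The cause was not tested. The count of 2 summits beside small RNA genes was 1 in the other series-wide list and 1 without either replicate. The count of 2 with GAGAGA was 1 within 50 bp and 1 without either replicate. No paired analysis was possible because the samples form 1 group. The lists hold no read counts, so depth limits cannot be stated.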
